A study of Mus musculus with 8 samples.

Results

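The transcriptional response of the mouse left ventricle to 5 days of pressure overload was measured in hearts that carried Lin28a. The comparison used 4 of the 8 libraries of the series, chosen by their labels: 2 libraries of floxed mice (Lin28afl/fl) with a sham operation and 2 of floxed mice with constriction of the transverse aorta (TAC), in which a band on the aortic arch makes the left ventricle pump against a raised pressure. Of 13439 genes listed, 13120 reached 1 CPM in at least 2 libraries and were tested. The other 4 libraries came from cardiac specific Lin28a knockout mice (cKO) with sham or TAC, and the floxed mice were their littermates. They entered the fit to estimate the spread and were compared with the floxed hearts only where a difference of response was tested. The floxed allele was shared by the sham and TAC groups, so it does not differ between them. The labels do not give the driver of the cardiac deletion, the age and sex of the animals, the day of the sham harvest, or whether each library came from a separate animal. The p-values therefore measure only the spread between these libraries, which may be technical.

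Cardiac muscle answers a raised load by enlarging its cells and by changing which genes it transcribes. In rodents this response is known for the return of genes used before birth, such as the natriuretic peptides, skeletal alpha actin and beta myosin heavy chain, for a retreat from the burning of fatty acids, and for growth of the connective tissue around the muscle cells. In the first week after aortic banding, fibroblasts become activated, monocytes enter the wall and some non-muscle cells divide.

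Library totals of the floxed hearts were 15413668 and 16662137 reads for sham and 21871570 and 21526001 reads for TAC, so that a gene with 0 reads may have had up to 3 reads, or 0.137 to 0.291 CPM over the 8 libraries. Markers of heart muscle were abundant in all 4 floxed libraries, with summed levels of 108680.0 and 98283 CPM in the sham libraries and 66658 and 66779 CPM in the TAC libraries, so all 4 carried the transcripts of heart muscle that the label calls for. The atrial light chain gene Myl7 was at 6.16 and 133 CPM in the sham libraries and 2.65 and 0.511 CPM in the TAC libraries. Floxed sham 2 therefore held atrial transcripts. The floxed libraries are called sham 1, sham 2, TAC 1 and TAC 2, and where leaving out 1 of them, or RLE scaling, moved a list's count of 3 or more genes by over 1.5 times, the count that results follows in parentheses. Counts of 1 or 2 genes are given as they are, since the loss of 1 call already moves them by more than that. The median gene differed by log2 0.141 between the sham libraries and by log2 0.166 between the TAC libraries, against 0.197 and 0.216 in the cKO groups. Lin28a transcripts were not analysed here, so the genotype rests on the labels.

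TAC changed the level of a large share of the genes measured. By limma on log2(CPM + 1) with Benjamini-Hochberg adjustment, 5562 of 13120 genes (42.4%) passed an adjusted p of 0.05, of which 3655 (27.9%) were higher in TAC and 1907 (14.5%) lower. All differences below are log2 of TAC minus sham on that scale, ± the standard error of the fit, and a pseudocount of 1 CPM understates the change of low genes. Both TAC libraries lay above both sham libraries for 46.7% of genes and below them for 28.9%. The shares called, 27.9% higher and 14.5% lower, are the background for the list counts in floxed hearts below. Rises were larger than falls. More than 2-fold changes were seen for 1830 higher and 586 lower genes, more than 8-fold for 112 and 11, and more than 32-fold for 11 and 0, whereas 3146 of the called genes stayed within 2-fold. The median gene lay at log2 0.14 with the deposited scaling and at 0.00 under RLE scaling, which sets the median gene near 0. Higher genes made up 65.7% of the calls with the deposited scaling and 53.5% under RLE, with 2985 higher and 2595 lower, so the surplus of higher calls depends on the scaling. Without sham 1 the calls fell to 3618, with 2412 higher and 1206 lower, and without sham 2 the lower calls fell to 1204.

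The direction of change depended on how abundant a gene was. Among 2826 genes with a mean below 5 CPM over all 8 libraries of the series, 30.4% were higher and 6.83% lower. Among 280 genes at 500 CPM and above, 22.9% were higher and 52.5% lower, with a median of log2 -0.48. Sham hearts spent many of their reads on a few contractile and mitochondrial genes, and the mean TAC heart shifted 24.7% of its reads from genes that lost to genes that gained. The 12 genes with the largest losses in mean CPM were Myh6, Atp2a2, Mb, Myl2, Pln, Tnni3, Atp5b, Lpl, Atp5a1, Fabp3, Ogdh and Slc25a4. They encode the fast myosin heavy chain, the calcium pump of the sarcoplasmic reticulum, myoglobin, the ventricular light chain, the inhibitor of that calcium pump, cardiac troponin I, subunits of ATP synthase, lipoprotein lipase, the heart fatty acid carrier, a TCA cycle enzyme and the adenine nucleotide carrier. The largest gains went to Actc1, Acta1, Des, Ankrd1, Col3a1, Col1a1, Nppa, Clu, Xirp2, Eef1a1, Col1a2 and Cryab, which are actins, desmin and other stress proteins of the muscle cell, collagens, a natriuretic peptide, clusterin and an elongation factor.

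**Figure D1:**
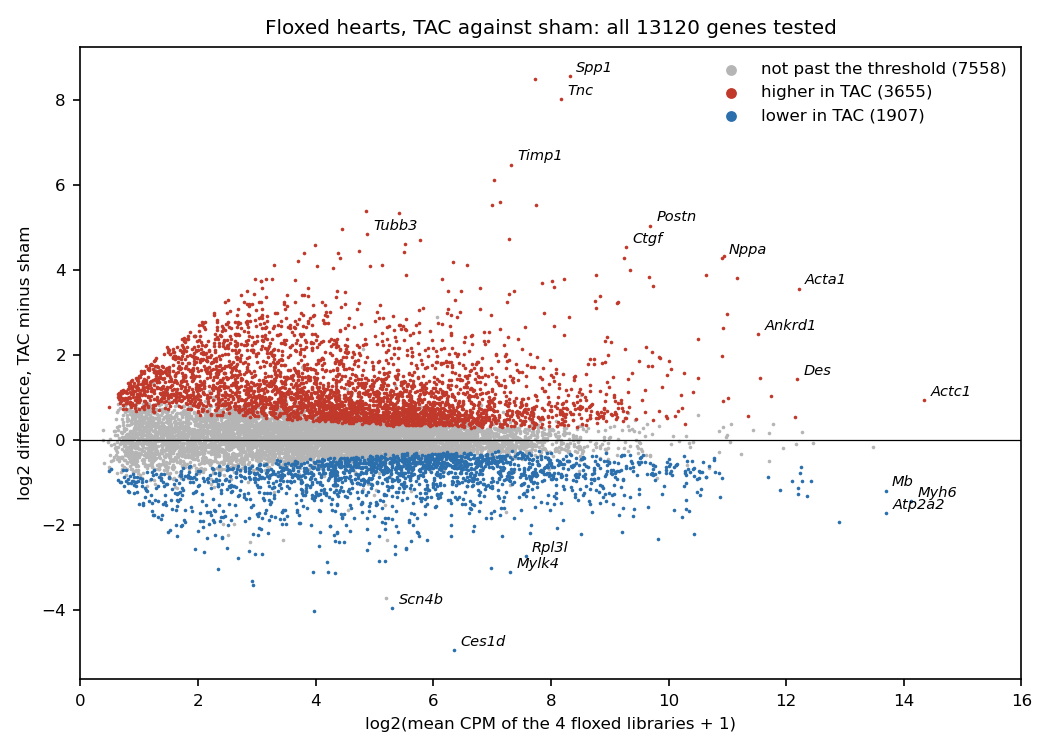
Each point is 1 of the 13120 genes, with the log2 mean CPM of the 4 floxed libraries on the x axis and the log2 difference of TAC minus sham on the y axis; red genes were higher (3655) and blue genes lower (1907) at an adjusted p of 0.05. The rises reach further from 0 than the falls, and most of the genes at the right end lie below 0.

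The 2 sarcomeric actins both rose, in spite of falls among many of their partners. Actc1, the cardiac actin gene (chromosome 2, 114047282 to 114052875), was at 13022 and 15703 CPM in the sham libraries and 28204 and 26450.1 CPM in the TAC libraries. Acta1, the skeletal actin gene used in the heart before birth (chromosome 8, 123891758 to 123894775), was at 778 and 601 CPM in the sham libraries and 5235 and 12442 CPM in the TAC libraries. The groups did not overlap for either gene, but TAC 2 held more than 2 times the Acta1 of TAC 1. The tests gave log2 0.93 ± 0.23, adjusted p = 0.00883 for Actc1 and log2 3.56 ± 0.43, adjusted p = 0.000199 for Acta1, and without floxed sham 1 Actc1 did not pass (log2 0.80, adjusted p = 0.0932). Per kilobase of exon, Acta1 made up 5.92% and 3.87% in the sham libraries and 16.4% and 33.1% in the TAC libraries of the sum of both. Reads of these near-identical genes may be shared between them, since the labels do not say how reads that match both were counted.

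Promoters of 5 genes that rose are shown because each holds the letters of a motif known from load-responsive muscle and stress genes. The motifs were the CArG box, bound by serum response factor, MCAT (CATTCC or GGAATG), bound by TEAD factors, and AP-1 (TGACTCA or TGAGTCA), bound by Fos and Jun. Each window is the 250 bases before a RefSeq transcript start (GRCm38.p6, the assembly of mm10), 5′ to 3′ on the strand of the gene, with motif letters in capitals. Acta1 (chr8:123894776-123895025, minus strand) holds a CArG box at -73 and an MCAT motif at -46 from the start, Actc1 (chr2:114052876-114053125, minus strand) a CArG box at -47, Ankrd1 (chr19:36119845-36120094, minus strand) MCAT motifs at -210 and -123, Nppb (chr4:147985650-147985899, plus strand) an MCAT motif at -105, and Sprr1a (chr3:92485882-92486131, minus strand) AP-1 motifs at -146 and -116.
Acta1: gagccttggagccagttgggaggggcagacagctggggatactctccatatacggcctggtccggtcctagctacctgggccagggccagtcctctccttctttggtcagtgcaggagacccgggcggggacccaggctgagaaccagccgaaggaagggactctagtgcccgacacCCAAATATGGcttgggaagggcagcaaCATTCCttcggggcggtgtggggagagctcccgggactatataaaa
Actc1: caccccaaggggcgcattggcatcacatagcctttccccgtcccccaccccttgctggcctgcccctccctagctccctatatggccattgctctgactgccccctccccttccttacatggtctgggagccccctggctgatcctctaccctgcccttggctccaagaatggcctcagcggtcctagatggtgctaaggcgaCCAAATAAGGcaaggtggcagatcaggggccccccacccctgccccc
Ankrd1: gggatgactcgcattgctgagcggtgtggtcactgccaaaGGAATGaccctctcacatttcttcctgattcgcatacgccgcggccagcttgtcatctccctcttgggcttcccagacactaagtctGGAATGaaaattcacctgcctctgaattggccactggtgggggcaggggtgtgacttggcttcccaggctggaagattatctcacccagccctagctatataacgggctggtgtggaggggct
Nppb: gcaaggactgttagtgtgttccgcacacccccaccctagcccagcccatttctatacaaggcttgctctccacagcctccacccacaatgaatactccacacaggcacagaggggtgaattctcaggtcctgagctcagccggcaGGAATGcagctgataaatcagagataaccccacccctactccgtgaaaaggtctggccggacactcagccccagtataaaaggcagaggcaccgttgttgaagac
Sprr1a: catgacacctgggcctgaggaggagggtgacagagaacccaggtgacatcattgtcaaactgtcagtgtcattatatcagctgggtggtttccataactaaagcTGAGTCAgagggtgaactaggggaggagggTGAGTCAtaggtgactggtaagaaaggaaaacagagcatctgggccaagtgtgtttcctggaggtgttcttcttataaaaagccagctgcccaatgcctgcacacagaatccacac
The 5 were picked from 15 genes looked up, of which 13 had a window and 8 a motif; the windows of Nppa, Des, Myl2, Spp1 and Tnc held none of the 3. Over all 32851 windows of the table, searched on both strands, 1.47% held a CArG box, 12.6% an MCAT motif and 4.46% an AP-1 motif. Among windows of genes that were higher, lower and not past the threshold, the shares were 1.40%, 1.51% and 1.03% for the CArG box, 11.6%, 11.8% and 10.8% for MCAT and 4.08%, 3.73% and 2.88% for AP-1. Higher and lower genes thus held each motif at similar shares, and a match of letters does not show a bound site. Ankrd1, a stretch-responsive repeat protein of the sarcomere, was at 1082 and 729 CPM in the sham libraries and 4567 and 5411 CPM in the TAC libraries, and Nppb, the brain natriuretic peptide gene, at 73.3 and 76.9 CPM in the sham libraries and 1346 and 1087 CPM in the TAC libraries. Sprr1a, a small proline-rich protein better known from skin, had 1 and 2 reads in the sham libraries and 12373 and 5919 reads in the TAC libraries, a ratio of 4507 (counting interval 1542 to 21860.0) over both libraries of a group. It passed with an adjusted p of 8.37e-05 by limma, and did not pass by limma-voom.

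In the thick filament the change was a fall, with 8 of 19 tested members lower (5 without sham 2) and 2 higher, against 14.5% and 27.9% of all genes. The ventricular light chain gene Myl2 was at 12247 and 11918 CPM in the sham libraries and 3337 and 2977 CPM in the TAC libraries (log2 -1.94 ± 0.16, adjusted p = 3e-05). The kinases Mylk3 and Mylk4, of which the first phosphorylates that light chain, fell (log2 -1.44 and -3.11). Mylk4 was at 279 and 286 CPM in the sham libraries and 31 and 32.8 CPM in the TAC libraries. The 2 that rose were Mybpc2, a myosin binding protein of fast skeletal muscle (log2 1.81), and Myh7, the slow myosin gene (log2 1.00, adjusted p = 0.0201), which did not pass without floxed sham 2 (log2 0.69, adjusted p = 0.16) or without floxed TAC 2 (log2 0.72, adjusted p = 0.148). In the thin filament 9 of 19 members were higher and 5 lower (3 without sham 1 and 2 without sham 2). The rises were led by Acta1, smooth muscle gamma actin (Actg2, log2 2.36), the non-muscle actins Actb (log2 1.87) and Actg1 (log2 1.75) and Tpm2 (log2 1.54), a tropomyosin. Cardiac troponin I (Tnni3) fell (log2 -1.27) and the leiomodin gene Lmod3, which promotes thin filament growth, fell too (log2 -0.94).

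Z-disc, stretch and LIM proteins rose as a group, with 17 of 23 higher, 4 lower (2 without sham 1) and a median of log2 1.06. Fhl1, a LIM protein of a sarcomeric stretch sensor (chromosome X, 56731209 to 56793346), was at 119.7 and 130.2 CPM in the sham libraries and 1310.5 and 1853 CPM in the TAC libraries (log2 3.63 ± 0.19, adjusted p = 5.54e-06). Its relative Fhl2 went the other way, at 1909.7 and 1902 CPM in the sham libraries and 1241 and 1020.1 CPM in the TAC libraries (log2 -0.76 ± 0.15, adjusted p = 0.00326). Both sets of libraries were clear of each other for these genes. Non-muscle alpha actinin (Actn1) rose by log2 2.53 while the muscle form Actn2 did not pass at log2 0.17. Tcap, which caps titin at the Z-disc (chromosome 11, 98383811 to 98384953), fell from 2349 and 2194 to 451 and 523 CPM (log2 -2.22 ± 0.31, adjusted p = 0.0004). Ankrd2, the skeletal muscle relative of Ankrd1, had 1 and 3 reads in the sham libraries and 167 and 569 reads in the TAC libraries.

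Tubulins and intermediate filaments, which form the non-sarcomeric skeleton of the muscle cell and its neighbours, rose. Of 20 tubulins and microtubule proteins 12 were higher and 8 did not pass, with a median of log2 1.22. Beta tubulins that are scarce in the sham heart were among the genes that rose. Tubb3, the form best known from neurons (chromosome 8, 123411553 to 123422015), was at 0.584 and 1.38 CPM in the sham libraries and 67 and 44.6 CPM in the TAC libraries, Tubb2b at 10.6 and 11.9 CPM in the sham libraries and 144 and 134 CPM in the TAC libraries and Tubb2a at 30.9 and 25.6 CPM in the sham libraries and 273 and 276 CPM in the TAC libraries. Tubb6 followed at log2 2.32. The abundant Tuba4a did not pass, at 1222 and 1451 CPM in the sham libraries and 1290.3 and 1233 CPM in the TAC libraries. Tubulin genes are alike in sequence, so reads may have been split between them. Of 12 intermediate filament and lamina genes 11 were higher, among them desmin (Des, chromosome 1, 75360292 to 75368579) at 2629.6 and 2425 CPM in the sham libraries and 6564 and 7076 CPM in the TAC libraries (log2 1.43 ± 0.14, adjusted p = 5.93e-05), vimentin (Vim) at log2 2.06 and lamin A (Lmna) at log2 1.44. The keratin gene Krt18, of epithelial type, rose from 0.26 and 0.36 to 10.8 and 12.2 CPM. Intercalated disc genes were mixed, with 3 of 15 higher and 3 lower (1 without sham 1 and 7 under RLE scaling): the desmosomal cadherin Dsg2 fell (log2 -1.47) and vinculin (Vcl) rose (log2 0.80).

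**Figure D2:**
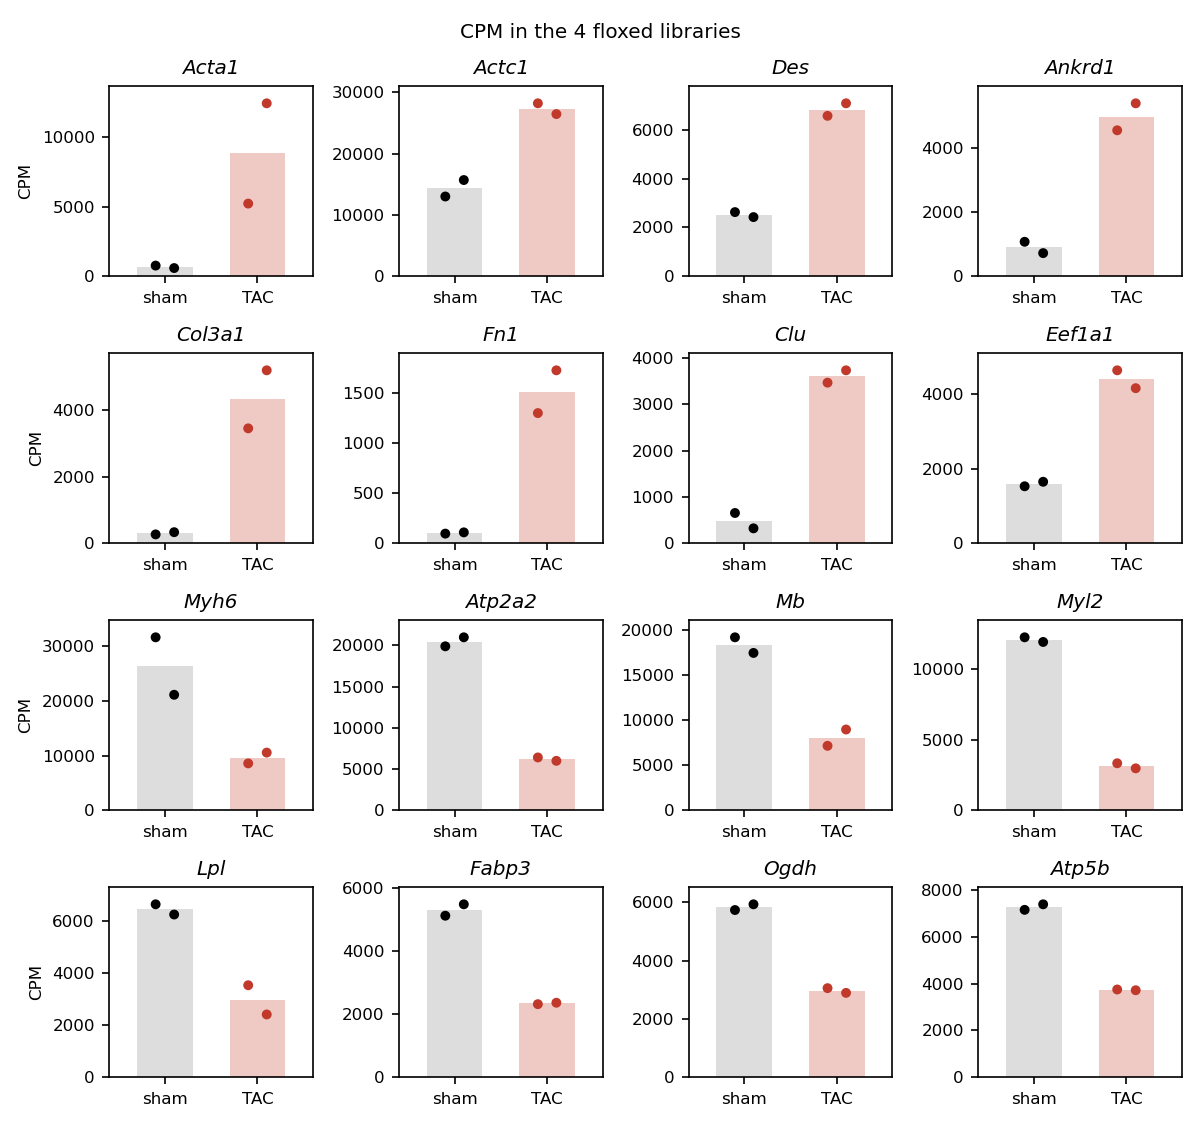
Bars show the mean CPM of each floxed group and points the 2 libraries, for 8 genes with large gains (upper rows) and 8 with large losses (lower rows), each on its own axis from 0. In every panel the sham and TAC libraries are apart, with Acta1 showing the widest gap between TAC libraries, at 5235 and 12442 CPM.

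Transcripts of repolarising potassium channels fell almost throughout. Of 20 potassium channel genes 16 were lower and 1 higher, with a median of log2 -1.09. Kcnip2, the subunit that sets the transient outward current in heart muscle (chromosome 19, 45792346 to 45816422), was at 234 and 240.5 CPM in the sham libraries and 57.4 and 40.8 CPM in the TAC libraries (log2 -2.27 ± 0.18, adjusted p = 3e-05). Kcnj3, a channel gated by acetylcholine through G proteins and richest in the atria (45.2 and 53 to 8.87 and 5.85 CPM), and Abcc9, the regulatory subunit of the ATP-sensitive channel (log2 -1.70 ± 0.12, adjusted p = 1.71e-05), fell as well. The largest fall was that of the silent subunit gene Kcnv2, from 14.4 and 11 to 0.137 and 0.65 CPM. Sodium, pacemaker and chloride channel genes held 6 lower and 3 higher of 14. Among them the sodium channel subunit gene Scn4b (chromosome 9, 45138624 to 45154155) was at 83.4 and 63 CPM in the sham libraries and 2.97 and 4.6 CPM in the TAC libraries (log2 -3.96 ± 0.19, adjusted p = 4.62e-06). Scn4a, the sodium channel pore of skeletal muscle, fell (log2 -2.57), and Fxyd5, a regulator of the sodium pump, rose (log2 2.30).

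Of 26 calcium handling genes 11 were lower and 3 higher. The histidine-rich calcium binding protein of the sarcoplasmic reticulum (Hrc, chromosome 7, 45335269 to 45338973) was at 1622 and 1392 CPM in the sham libraries and 256 and 345 CPM in the TAC libraries (log2 -2.34 ± 0.16, adjusted p = 1.71e-05), against log2 -1.72 for Atp2a2 and -1.32 for Pln. Casq2, the calcium store protein, did not pass at log2 -0.06. Sypl2, a protein of the triad membrane in skeletal muscle, rose from 0.454 and 0.18 to 13.4 and 16.1 CPM, and Bin1, which shapes the transverse tubules, rose (log2 1.20). Among receptors and cAMP enzymes 11 of 29 were lower (6 without sham 2 and 7 without TAC 2) and 6 higher. The alpha adrenergic receptor genes Adra1a and Adra1b fell (log2 -2.23 and -1.55), as did the angiotensin receptor gene Agtr1a (log2 -1.23). The adenylyl cyclase Adcy7 rose (log2 2.52), and the phosphodiesterases Pde1a and Pde4d went opposite ways at log2 1.34 and -1.24. In the natriuretic peptide system both hormone genes rose, whereas neprilysin (Mme), which degrades the peptides, fell (log2 -1.99) and corin (Corin), which activates them, fell as well (log2 -0.82).

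Among 25 calcineurin targets and cardiac transcription factors 4 were higher (2 without sham 1), 7 lower (4 without sham 1) and 14 not past. Rcan1, a feedback inhibitor and target of calcineurin, rose from 70.3 and 70.3 to 441 and 471 CPM (log2 2.68 ± 0.36, adjusted p = 0.000364). The homeobox gene Hopx and the T-box factor Tbx5 fell (log2 -1.84 and -1.53), and Mkl1, a coactivator of serum response factor, rose (log2 1.06). Of 15 YAP and TEAD targets 7 were higher and 1 lower, led by Ctgf at 51.7 and 48.6 CPM in the sham libraries and 1186 and 1189 CPM in the TAC libraries.

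Genes of the fibrous matrix rose nearly without exception. All 15 fibrillar and associated collagens and all 21 collagen processing enzymes were higher, as were 18 of 20 matricellular proteins, with medians of log2 3.27, 1.51 and 2.89. Under RLE scaling these counts were 15, 19 and 17. The enzyme gene Plod1 did not pass under RLE scaling, nor by limma-voom, edgeR or DESeq2. The fibril-surface collagen Col12a1 had the largest change of the collagens (chromosome 9, 79598987 to 79721141), with 0.843 and 1.32 CPM in the sham libraries and 82.7 and 82.9 CPM in the TAC libraries (log2 5.34 ± 0.30, adjusted p = 7.37e-06), and Col6a2 the smallest at log2 1.89. Cross-linking oxidases that act on secreted collagen rose: Lox was at 3.18 and 2.28 CPM in the sham libraries and 284 and 229 CPM in the TAC libraries, Loxl2 at 35.4 and 44.2 CPM in the sham libraries and 455 and 529.7 CPM in the TAC libraries and Loxl3 at 5.71 and 4.14 CPM in the sham libraries and 79.8 and 91.9 CPM in the TAC libraries. Pcolce, which speeds removal of the collagen propeptide, reached log2 2.01. Thbs4, a thrombospondin, went from 6.49 and 7.98 to 119 and 186 CPM, and Fstl1, a secreted glycoprotein, from 101 and 111 to 954 and 1085 CPM.

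Other layers of the matrix changed less evenly. Elastic fibre and microfibril genes had 12 higher and 3 lower (1 without sham 1 or TAC 1 and 0 without sham 2) of 16, with Ltbp2 (log2 5.59), Mfap5 (log2 3.42) and the fibulin-like Efemp2 (log2 2.61) among the higher genes. Of 17 basement membrane genes 11 were higher and 3 lower (0 without sham 1 and 1 without sham 2 or TAC 1), with Col18a1 at log2 1.97 and Col4a1 at log2 1.58. Of 13 small proteoglycans and hyaluronan genes 10 were higher, among them biglycan (Bgn) from 441 and 487 to 2248 and 2615 CPM and the hyaluronan receptor Cd44 from 9.15 and 12 to 73 and 73.5 CPM. Among 23 matrix proteases and inhibitors 17 were higher. The inhibitor Timp1 (chromosome X, 20870166 to 20874737; 2.21 and 2.88 to 272 and 361 CPM) rose alongside the proteases Adam8 (log2 4.58) and Adamts8 (log2 3.25), while Timp4 did not pass at log2 -1.04.

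Signals and receptors of the matrix rose in part. Of 22 TGF-beta and BMP genes 14 were higher and 2 lower. The ligands Tgfb2 (log2 2.75), Tgfb3 (log2 1.81) and Gdf6 (log2 3.77) and the receptor Tgfbr1 (log2 0.99) were higher, and the co-receptor Tgfbr3, also called betaglycan, lower (log2 -0.93). Of 18 integrins 12 were higher. They included leukocyte integrins, such as Itgam (log2 2.88), Itgb2 (log2 3.01) and Itgax (log2 3.20), and the fibronectin receptor Itga5 (log2 1.95). Of 27 Wnt and Notch genes 9 were higher and 5 lower (2 without sham 1 or sham 2, 3 without TAC 1 and 1 without TAC 2). Over all genes these shares were 27.9% and 14.5%. The secreted Wnt antagonists Frzb and Sfrp2 rose (log2 2.38 and 2.64), and Wif1, another, fell (log2 -1.67). Among IGF, FGF and EGF family genes 10 of 24 were higher and 5 lower (3 without sham 1), with Hbegf (log2 2.51), Igf1 (log2 2.08) and Ereg (log2 2.40) higher and Fgf1 (log2 -0.78), Fgf13 (log2 -1.15) and Fgf16 (log2 -1.05) lower. Egf itself, chosen as 1 of the 20 largest falls, went from 17.3 and 8.04 to 0.732 and 1.35 CPM. Angiogenic genes were mostly not past (18 of 23), with 3 higher (fewer without TAC 2) and 2 lower. Their median was log2 0.30 and the highest value log2 2.15. The lower genes were angiopoietin 1 (Angpt1) and Vegfb, at log2 -2.42 and -0.88.

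Markers of other cell types moved with the matrix and immune genes, and their part in those results was not tested. In a bulk tissue, more or fewer cells of a type and more or less RNA per cell cannot be told apart. All 9 activated fibroblast markers were higher, and their summed level was 325 and 366 CPM in the sham libraries and 3068 and 3425 CPM in the TAC libraries. Under RLE scaling 8 were higher. Acta2, also in the smooth muscle list, did not pass there, nor by limma-voom or edgeR. Of 10 fibroblast markers 6 were higher and 1 lower. Their sums were 3159 and 3049 CPM in the sham libraries and 5263 and 6690.4 CPM in the TAC libraries. Within these sums Col1a1 went from 165 and 207 CPM in sham to 3413 and 4100 CPM in TAC. That gain was larger than the gain of the sums, so the other members together did not rise. Recruited macrophage and monocyte markers were higher in 10 of 11 cases, with sums of 149 and 159 CPM in the sham libraries and 1725 and 2033 CPM in the TAC libraries, and Arg1 and Chi3l3 were at 0 in 1 sham library each. Resident macrophage markers were higher in 8 of 10 cases, with sums of 301 and 333 CPM in the sham libraries and 929 and 985 CPM in the TAC libraries. Endothelial markers had 0 of 11 past the threshold in either direction by limma. Their sums were 2002 and 1979 CPM in the sham libraries and 1771 and 1901 CPM in the TAC libraries. After adjustment limma-voom and edgeR each called 1 and DESeq2 called 2, all of these lower. At an unadjusted p of 0.05 limma gave 1, which was higher. At that same unadjusted p limma-voom and edgeR each gave 4 of the 11 and DESeq2 gave 6, all of them lower. Of 10 smooth muscle and pericyte markers 4 were higher and 3 lower, with sums of 4024 and 3924 CPM in the sham libraries and 7830.0 and 8340.5 CPM in the TAC libraries, of which desmin, also a gene of heart muscle, made up most. Tagln and Cnn1, of contractile smooth muscle, rose (log2 2.44 and 4.04), Myh11, the smooth muscle myosin, did not pass (adjusted p = 0.995), and the pericyte markers Kcnj8 and Rgs5 fell (log2 -0.98 and -0.45). The fall of Rgs5 did not pass without sham 1, sham 2 or TAC 1. Of 6 tested mesothelial markers 5 were higher (2 without sham 1 or TAC 1), but at low levels, with sums of 5.77 and 8.46 CPM in the sham libraries and 23.8 and 19.9 CPM in the TAC libraries. Neutrophil markers were scarce, with S100a8 at 0.0649 and 0 CPM in the sham libraries and 1.1 and 1.07 CPM in the TAC libraries. Of 13 T, B and natural killer cell markers 3 were listed and 1 tested, and of 7 adipocyte markers 1 was listed and 0 tested. Cardiomyocyte markers had 9 of 12 lower and 1 higher, with the sums given above.

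Immune genes of 4 lists rose in part or nearly throughout. Of 23 chemokines and receptors 16 were higher, with a median of log2 1.75. The receptors Ccr2 (chromosome 9, 124101918 to 124109140; 0.649 and 1.62 to 40.5 and 38.1 CPM) and Ccr1 (1.56 and 0.96 to 17.4 and 15.8 CPM) and the chemokines Ccl6 and Ccl8 (log2 2.68 and 3.19) led. Of 19 complement and Fc receptor genes 14 were higher and 5 did not pass, with Fcgr2b at log2 2.79 and C3ar1 at log2 2.86. In the antigen presentation list 7 of 14 were higher: H2-Eb1 was at 33.3 and 33.5 CPM in the sham libraries and 110.1 and 135 CPM in the TAC libraries and the class II invariant chain Cd74 at 129.6 and 128 CPM in the sham libraries and 376 and 455 CPM in the TAC libraries, and the loading factor gene H2-DMa followed at log2 1.88. The 7 higher genes were all of the class II pathway and the 7 that did not pass were of the class I pathway, such as the peptide transporter Tap2 at log2 -0.37. Of 21 interleukin 6 family and acute phase genes 14 were higher and 2 lower. The receptors Osmr (log2 2.12) and Il4ra (log2 2.57) and Tnfrsf12a, the receptor of TWEAK (log2 3.08), rose, and Lifr, the receptor of leukaemia inhibitory factor, fell (log2 -0.94).

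Genes almost silent in sham hearts included several of the same lineages. In all, 117 genes had at most 3 reads in each floxed sham library, and 110 of them were called higher, which their near absence in sham and the filter on low values favour. Cxcr6, a chemokine receptor of lymphocytes, had 1 and 1 reads in the sham libraries and 398 and 359 reads in the TAC libraries, a ratio of 279.8 (counting interval 77.2 to 2314). Mmp12, the macrophage elastase, had 2 and 2 reads in the sham libraries and 473 and 210 reads in the TAC libraries, a ratio of 126 (counting interval 49.1 to 464). P4ha3, a collagen prolyl hydroxylase, had 1 and 1 reads in the sham libraries and 330 and 264 reads in the TAC libraries, and Col8a2 had 2 and 3 reads in the sham libraries and 275 and 357 reads in the TAC libraries. The intervals cover counting error only. In the other direction 27 genes had at most 3 reads in each TAC library, and 21 of them were called lower. Chrna2, a nicotinic receptor subunit, went from 3.5 and 9.42 to 0.0457 and 0.139 CPM, and the atrial gene Mybphl from 0.389 and 18.1 to 0.137 and 0.0465 CPM without passing.

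**Figure D3:**
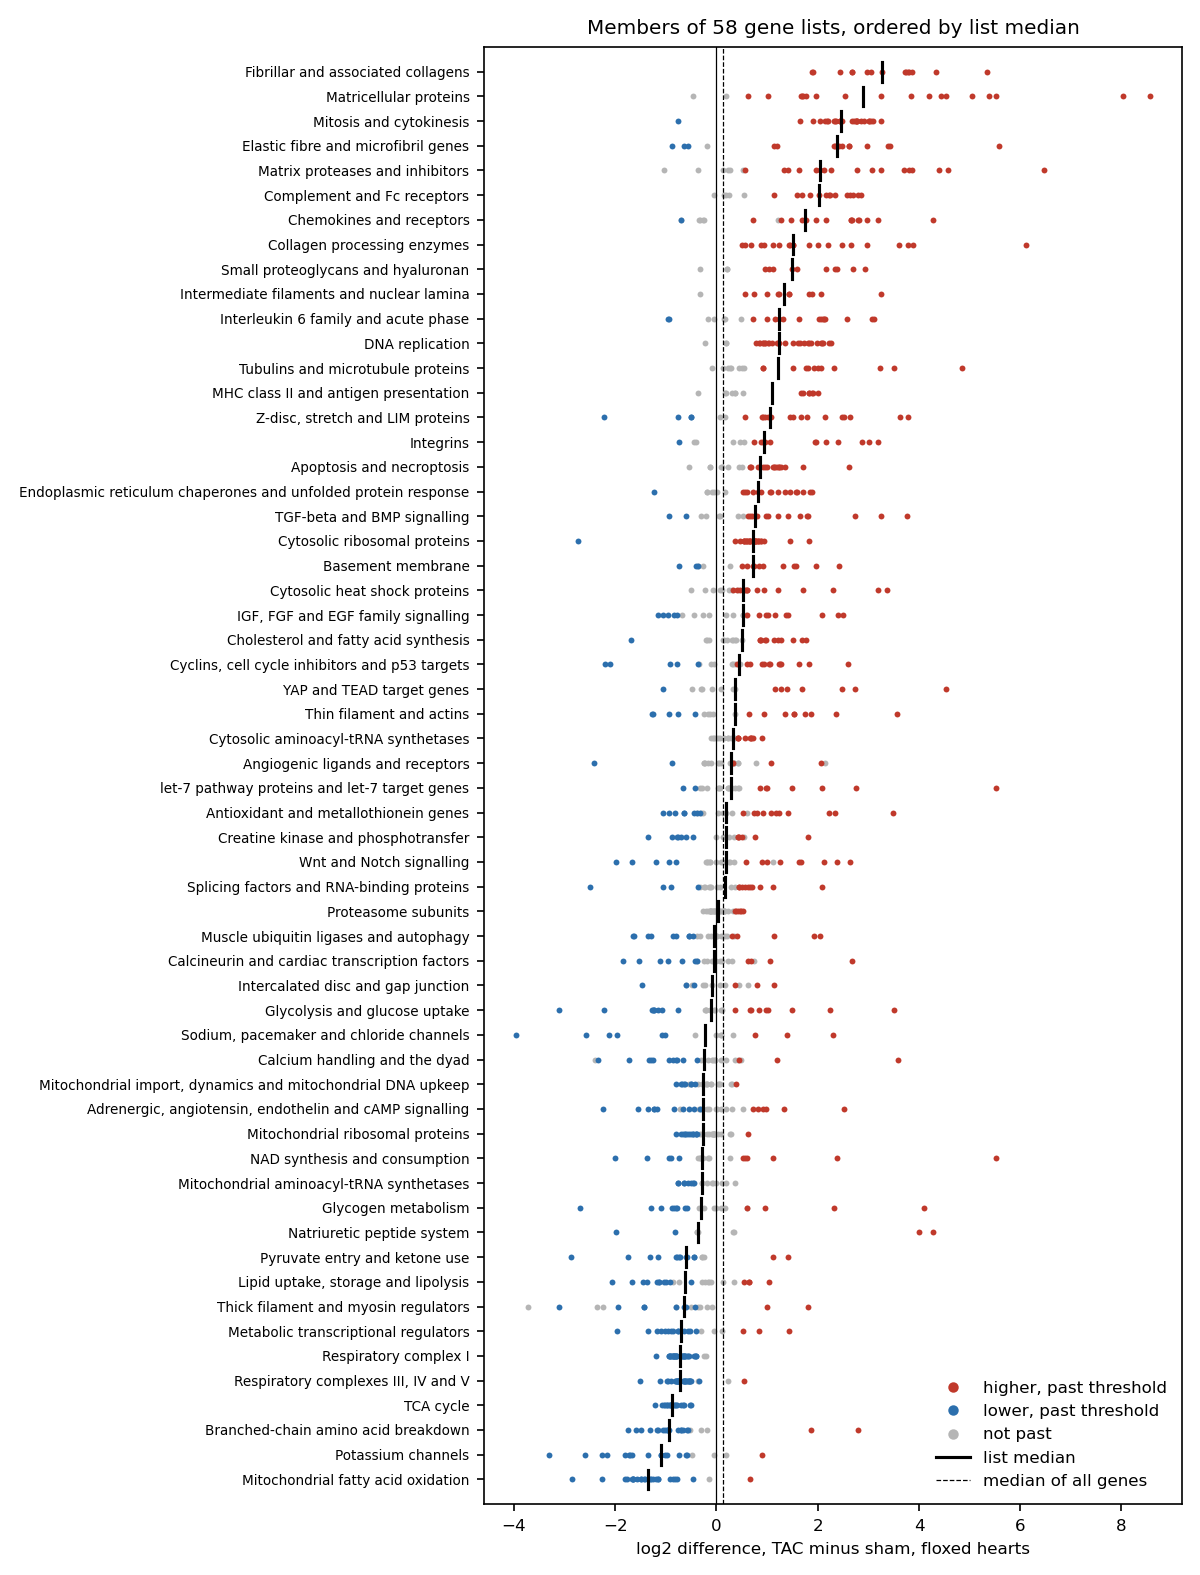
Each row is 1 of 58 gene lists and each point a tested member, with the log2 difference of TAC minus sham on the x axis; black bars mark list medians and the dashed line the median of all genes (0.14). Collagen, matricellular and mitosis lists lie at the top with medians from 2.46 to 3.27, and fatty acid oxidation, potassium channels and branched-chain amino acid breakdown at the bottom.

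Ribosomal protein genes of the cytosol and the mitochondrion moved apart. Of 31 cytosolic ribosomal protein genes 30 were higher, with a median of log2 0.73, whereas of 30 mitochondrial ribosomal protein genes 13 were lower (6 without sham 1 or sham 2 and 8 without TAC 2) and 1 higher, with a median of log2 -0.27. The exception in the first list was Rpl3l, the striated muscle form of ribosomal protein L3. Rpl3l (chromosome 17, 24727826 to 24736143) was at 322 and 337 CPM in the sham libraries and 46.4 and 51.5 CPM in the TAC libraries (log2 -2.73 ± 0.11, adjusted p = 1.99e-06), and Rpl3 (chromosome 15, 80077781 to 80083406) at 199.6 and 227 CPM in the sham libraries and 829.9 and 687 CPM in the TAC libraries (log2 1.82 ± 0.13, adjusted p = 1.97e-05). Neither pair of groups overlapped. Per kilobase, Rpl3 made up 24.3% and 25.8% in the sham libraries and 90.2% and 87.4% in the TAC libraries of the sum of the 2 forms. A similar split was seen in the aminoacyl-tRNA synthetases, which load amino acids on tRNA: 9 of 20 cytosolic enzymes were higher (5 without sham 2 or TAC 1) and the other 11 did not pass, and of 17 mitochondrial enzymes 8 were lower (3 without sham 1, 5 without sham 2 and 4 without TAC 2) and 9 did not pass. Gars and Cars rose (log2 0.67 and 0.90), and Cars2 and Aars2 fell (log2 -0.76 and -0.65). Ribosomal protein genes have many processed copies in the genome, so reads of single members may be shared with those copies.

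Chaperone transcripts of the secretory path rose, and most proteasome transcripts did not pass. Of 23 endoplasmic reticulum chaperones and unfolded protein response genes 16 were higher and 1 lower, with a median of log2 0.82. P4hb, a disulfide isomerase and part of the collagen hydroxylase, was at 315 and 351 CPM in the sham libraries and 1031 and 953 CPM in the TAC libraries (log2 1.57 ± 0.15, adjusted p = 5.26e-05). Pdia6, Manf and Edem1 followed at log2 1.45, 1.70 and 1.89. Of 23 cytosolic heat shock genes 14 were higher (9 without sham 1) and 9 did not pass. Hspb1, the small heat shock protein, went from 171 and 175 to 735 and 1002 CPM and the inducible Hspa1a and Hspa1b from 2.53 and 4.2 to 29 and 50.4 CPM and 2.34 and 2.58 to 24.7 and 48.2 CPM; these 2 genes are almost identical and their reads cannot be told apart with confidence. Of 31 proteasome subunits 25 did not pass and 6 were higher (2 without sham 1 or sham 2, 3 without TAC 1 and 2 under RLE scaling), with a median of log2 0.04. Muscle ubiquitin ligases and autophagy genes had 9 lower and 5 higher (3 without sham 1, sham 2 or TAC 1 and 3 under RLE scaling) of 27. Pink1, the kinase that marks damaged mitochondria (chromosome 4, 138313409 to 138326296), fell from 1040.2 and 1013 to 330.5 and 333 CPM (log2 -1.63 ± 0.11, adjusted p = 1.75e-05), and Asb2 and Fbxo31, parts of ubiquitin ligases, fell too (log2 -1.28 and -1.64), whereas the cathepsins Ctsz, Ctsk and Ctsb rose (log2 2.04, 1.93 and 1.13).

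Transcripts of mitochondrial energy metabolism fell for most members of each list. All 21 TCA cycle genes were lower, with a median of log2 -0.88 and a range from -1.22 to -0.49; Idh2, the mitochondrial isocitrate dehydrogenase that yields NADPH, was at 2040.2 and 1956 CPM in the sham libraries and 879.6 and 839 CPM in the TAC libraries. Of 35 complex I genes 33 were lower and of 35 genes of complexes III, IV and V 32 were lower, with medians of log2 -0.72 and -0.72. The 1 respiratory gene of these lists that rose was Cox6a1, the non-muscle form of a cytochrome oxidase subunit (log2 0.55, adjusted p = 0.00693), which did not pass without floxed sham 1 (log2 0.45, adjusted p = 0.077) or floxed TAC 1 (log2 0.47, adjusted p = 0.0529). Of 26 fatty acid oxidation genes 24 were lower, with a median of log2 -1.36 and a wider range from -2.86 to 0.66, and Ucp3, an uncoupling protein that responds to fatty acids, went from 73.1 and 41.4 to 3.47 and 12.4 CPM. Genes of branched-chain amino acid breakdown also fell, 18 of 23, with a median of log2 -0.93. Bckdha, the rate-limiting dehydrogenase subunit (chromosome 7, 25629852 to 25658782), was at 435 and 350.1 CPM in the sham libraries and 126 and 149.7 CPM in the TAC libraries (log2 -1.50 ± 0.15, adjusted p = 7.31e-05), and its activating phosphatase Ppm1k at log2 -1.74. The 2 that rose in that list were Bcat1, the cytosolic transaminase (2.21 and 1.2 to 16.5 and 18.5 CPM), and Slc7a5, a transporter of large neutral amino acids (7.4 and 8.58 to 30.4 and 32.9 CPM).

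Regulators of these pathways were lower as well. Of 20 metabolic transcriptional regulators 14 were lower and 3 higher (0 without sham 1, TAC 1 or TAC 2, 1 without sham 2 and 1 under RLE scaling). The lower genes included Rxrg, a retinoid receptor (log2 -1.35), Esrrb, an oestrogen-related receptor (log2 -0.96), 2310042D19Rik, the older symbol of Perm1, a muscle gene induced by such receptors (log2 -1.17) and Klf15, a factor that restrains hypertrophy and drives amino acid and lipid use (log2 -1.97). Of 17 genes of pyruvate entry and ketone use 12 were lower, with Pdk2 at log2 -1.31 among the lower genes, while Pdk3 rose (log2 1.42). Of 24 genes of lipid uptake, storage and lipolysis 11 were lower and 4 higher (1 without sham 1 and 2 without sham 2). Dgat2, which makes triglyceride, was at 468 and 415 CPM in the sham libraries and 107 and 102 CPM in the TAC libraries, and Vldlr, Plin5 and Pnpla2, for uptake, droplet coat and lipolysis, were at log2 -1.38, -1.45 and -1.13. Cholesterol and fatty acid synthesis went the other way in 11 of 23 genes (7 without sham 1 or TAC 1), such as Scd1 (log2 1.51), with Fdft1, squalene synthase, lower (log2 -1.68).

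Glycolysis did not move as 1 pathway. Of 27 tested genes 9 were higher, 9 lower and 9 not past, and the median was log2 -0.11. Some related forms changed in opposite directions. The muscle phosphofructokinase Pfkm was at 1332 and 1357 CPM in the sham libraries and 581 and 527 CPM in the TAC libraries and the platelet form Pfkp at 54.2 and 46.3 CPM in the sham libraries and 221 and 261 CPM in the TAC libraries. The insulin-responsive glucose carrier Slc2a4 was at 679 and 739.7 CPM in the sham libraries and 339 and 264 CPM in the TAC libraries and the basal carrier Slc2a1 at 33.9 and 35.1 CPM in the sham libraries and 81.1 and 62.8 CPM in the TAC libraries. For hexokinase and phosphoglycerate mutase the forms Hk1 and Pgam1 rose (adjusted p = 0.000775 and 0.000245) while the muscle forms Hk2 and Pgam2 did not pass (adjusted p = 0.169 and 0.326). The lactate exporter gene Slc16a3 rose from 2.08 and 2.46 to 43.2 and 30.3 CPM, and the muscle fructose bisphosphatase Fbp2 fell from 27.1 and 36.5 to 4.43 and 1.63 CPM. In glycogen metabolism, with 4 higher and 9 lower of 20, the muscle phosphorylase Pygm fell (log2 -1.29) and the liver form Pygl rose (log2 2.32). Pygl was at 4.09 and 5.58 CPM in the sham libraries and 28.6 and 27.3 CPM in the TAC libraries of floxed mice, and at 40.0 and 39.3 CPM in the cKO sham libraries and 6.45 and 14.2 CPM in the cKO TAC libraries, so its level in cKO sham hearts was above that in floxed sham hearts. In the phosphotransfer list 6 genes were higher (3 without sham 1 or sham 2, 2 without TAC 1 and 2 under RLE scaling) and 7 lower of 18: the muscle creatine kinase Ckm fell (log2 -1.35), the brain form Ckb rose (log2 0.77), and Gatm, the first enzyme of creatine synthesis, rose (log2 1.80). Of 20 genes of NAD synthesis and use 6 were higher (3 without sham 2 or TAC 2) and 5 lower. Nampt, which salvages nicotinamide, was at 329.8 and 314 CPM in the sham libraries and 77.9 and 80.9 CPM in the TAC libraries, and Nmrk2, which uses nicotinamide riboside, at 7.46 and 7.26 CPM in the sham libraries and 588 and 252 CPM in the TAC libraries. Nampt was lower and Nmrk2 higher, with adjusted p values of 0.000152 and 1.47e-05.

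Related forms of 1 protein often moved apart. For 32 gene pairs measured, in which 1 form was assigned here to adult heart or striated muscle and the other is used more widely or earlier in life, the muscle form was lower in 22 pairs, higher in 2 and not past in 8. The other form was higher in 20 pairs, lower in 2 and not past in 10. In 12 pairs the muscle form was lower and the other form higher, a count that was 6 without sham 1 and 7 without sham 2. The other form had the larger log2 difference in 32 of 32 pairs (31 without TAC 2), and the gap ran from log2 0.05 for Atp5g1 and Atp5g3 to log2 4.55 for Rpl3l and Rpl3. The gap of the former pair was below the standard error of either gene. The assignment is loose for some pairs. Tubb4a, Atp5g1 and Camk2a are not specific to muscle, and Casq1 and Fhl1, set as other forms, are also muscle genes. Per kilobase, the other form made up more of the sum of both for Eef1a1 and Eef1a2, the translation elongation factors, with Eef1a1 at 38.4% and 41% in the sham libraries and 72.8% and 70.1% in the TAC libraries. For Ckb and Ckm the non-muscle share was 1.93% and 2.15% in the sham libraries and 8.71% and 7.97% in the TAC libraries, and for Myh7 against Myh6 the slow share was 3.94% and 3.89% in the sham libraries and 16.8% and 19.4% in the TAC libraries. In these pairs the muscle form stayed the larger for Ckm and Myh6 and became the smaller for Eef1a2. The pairs were chosen with earlier results of these data known, so their counts are a description. Of all genes tested, 27.9% were higher and 14.5% lower. No test was made on the pairs themselves.

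**Figure D4:**
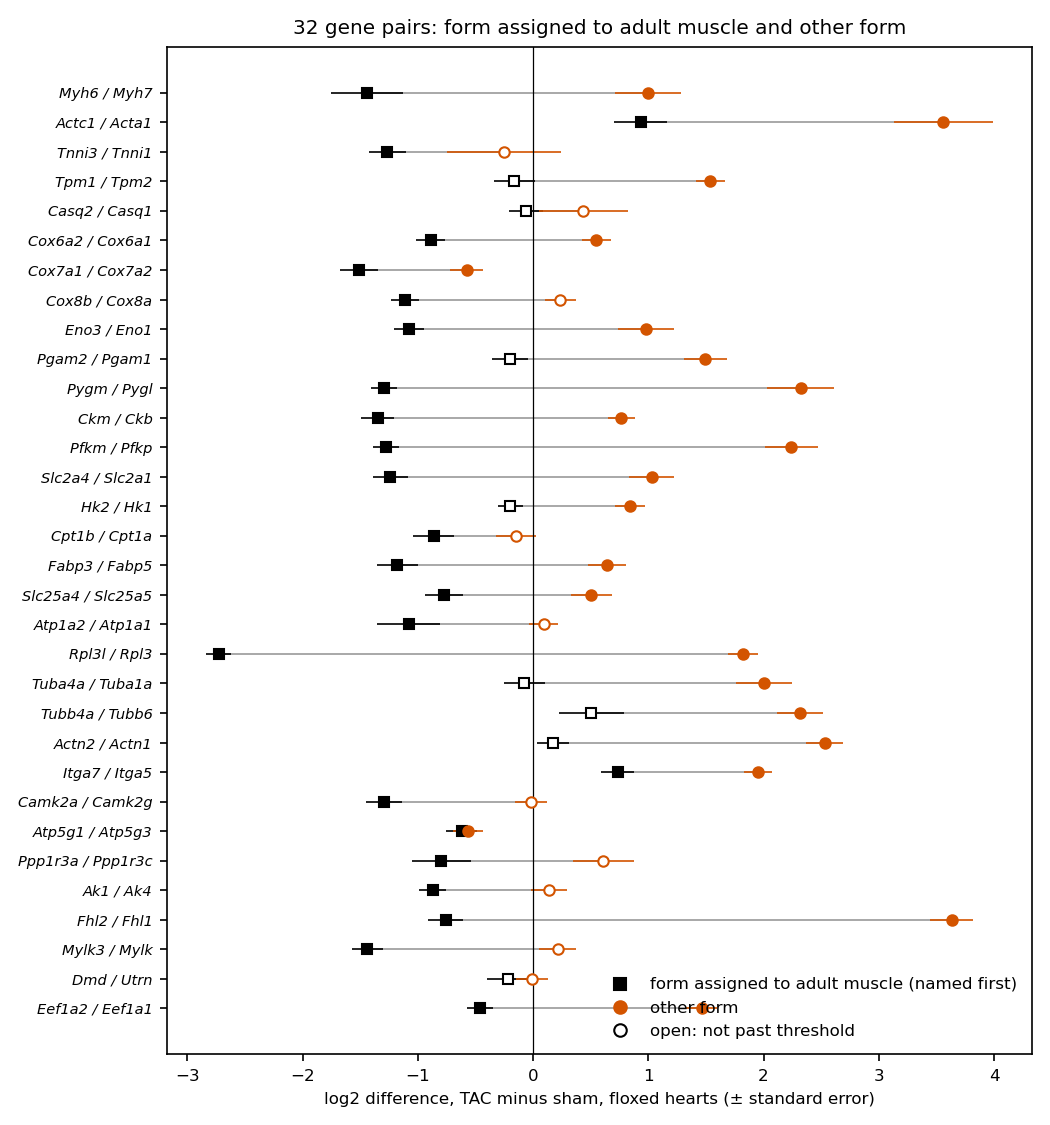
For each of 32 gene pairs, the square is the form assigned to adult muscle and the circle the other form, at their log2 difference of TAC minus sham with the standard error of the fit; open symbols did not pass. Circles lie to the right of squares in every row, closest for Atp5g1 and Atp5g3 and furthest apart for Rpl3l and Rpl3.

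Genes of DNA replication and mitosis were higher in 27 of 30 and 29 of 30 cases, with medians of log2 1.23 and 2.46, from low sham levels. Uhrf1, which maintains DNA methylation at replication, went from 3.89 and 5.76 to 26.1 and 27.2 CPM and the kinase gene Plk1 from 1.49 and 0.78 to 20.1 and 17.9 CPM. In the list of cyclins, cell cycle inhibitors and p53 targets 13 were higher (7 without sham 1 or TAC 2 and 8 without TAC 1) and 5 lower (3 without sham 1, sham 2 or TAC 2) of 26: Cdkn1a, the p21 inhibitor, rose from 13.5 and 11 to 82.8 and 74.6 CPM and Cdkn1c, the imprinted p57 inhibitor, fell from 36.1 and 29.5 to 6.49 and 6.13 CPM. Apoptosis and necroptosis genes had 18 of 27 higher (10 without sham 2 and 11 without TAC 1), with Bak1 at log2 1.35, Apaf1 at 1.20 and Ripk1 at 1.15. Of 27 antioxidant and metallothionein genes 11 were higher and 8 lower (5 without sham 1, sham 2 or TAC 2): haem oxygenase (Hmox1) and Gpx1 rose (log2 3.50 and 1.41), and the mitochondrial Sod2 and Prdx3 and the peroxisomal catalase (Cat) fell (log2 -0.94, -0.81 and -1.06). Among 24 splicing factors and RNA-binding proteins 10 were higher (4 without sham 1, 6 without sham 2, 5 without TAC 1 and 6 under RLE scaling) and 4 lower. Rbfox1, a splicing regulator of muscle and brain, was at 68 and 68.2 CPM in the sham libraries and 9.74 and 12.8 CPM in the TAC libraries, and Rbm20, the splicing factor of titin, fell (log2 -0.91). Igf2bp2, a let-7 target that binds mRNA, rose (log2 2.08). Of 23 let-7 pathway and target genes 7 were higher (4 without TAC 2), 2 lower and 14 not past. The shares over all genes were 27.9% higher and 14.5% lower.

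Among 272 long non-coding RNAs, as typed by RefSeq, 25 were higher and 55 lower, with a median of log2 -0.13, beside 27.9% and 14.5% of all genes; the difference was not tested. The named examples were chosen after their values were seen. H19, an imprinted RNA of growing muscle, was at 12.7 and 17.6 CPM in the sham libraries and 72.4 and 49.7 CPM in the TAC libraries and Rian, of another imprinted cluster, at 1.49 and 2.16 CPM in the sham libraries and 10.8 and 11.6 CPM in the TAC libraries. Gas5 rose (log2 0.89) and Peg13 fell (log2 -0.88).

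Some genes held their level closely. For 2024 genes (15.4%) the 95% interval of the log2 difference lay within ±0.5. Abundant genes were then picked for intervals that reached least far from 0 with the deposited scaling, so their steady level follows from the choice. Among them Glud1, glutamate dehydrogenase, was at 167 and 172 CPM in the sham libraries and 171 and 169 CPM in the TAC libraries (interval -0.21 to 0.22). Park7 was at 153 and 151 CPM in the sham libraries and 156 and 149 CPM in the TAC libraries. Other genes varied between the TAC libraries. Spp1, osteopontin, was at 0.519 and 0.42 CPM in the sham libraries and 956 and 324 CPM in the TAC libraries and Gpnmb, a glycoprotein of macrophages, at 2.34 and 1.38 CPM in the sham libraries and 143 and 31.9 CPM in the TAC libraries; both were higher in TAC 1, while Acta1 and Ankrd2 were higher in TAC 2. All of these genes lay above both sham libraries in each TAC library.

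The last comparison asked whether the TAC response with Lin28a intact differed from that in cKO hearts, by the interaction of genotype and surgery. The interaction passed for 1851 genes (14.1%). It was negative for 1204, with a smaller rise, a larger fall or a fall in place of a rise in cKO hearts. For 647 it was positive, the reverse. This surplus of negative values depended on the scaling and the tool: RLE scaling gave 917 negative and 846 positive, DESeq2 930 and 1003, edgeR 781 and 820, and limma-voom 736 and 832. Of the 3655 genes higher in floxed TAC hearts, 1187 had an interaction past the threshold, each of them negative, and of the 1907 lower genes 634 had one, each of them positive. The 3655 genes had a median of log2 1.00 in floxed and 0.23 in cKO hearts, and the 1907 genes medians of -0.79 and -0.18. These genes were chosen by their floxed values, which also enter the interaction, so the choice itself favours these signs. The signs and the medians are a description with no test. In cKO hearts 332 genes (2.53%) passed. By list, 27 of 31 cytosolic ribosomal proteins, 16 of 23 endoplasmic reticulum chaperones and 14 of 21 collagen processing enzymes had a negative interaction, and 21 of 26 fatty acid oxidation and 12 of 20 potassium channel genes a positive one, beside 9.18% and 4.93% of all genes. Without sham 1 these counts were 1, 7, 4, 12 and 6, and without sham 2 they were 7, 12, 11, 14 and 7. For the ribosomal proteins the count was also 12 without TAC 1, 16 without cKO sham 2 and 3 without the 3 libraries with atrial transcripts (sham 2, cKO sham 2 and cKO TAC 2, with Myl7 at 133, 65.0 and 66.2 CPM), and for the potassium channels 7 without TAC 2 or cKO sham 1. Of 30 mitosis genes 1 had an interaction past the threshold, against 13 without cKO TAC 2 and 17 without the 3 libraries with atrial transcripts; their medians were log2 2.46 in floxed and 1.61 in cKO hearts. The count of 1851 rested on single libraries: it fell to 254 without sham 1, 608 without sham 2, 703 without TAC 1, 735 without TAC 2, 1079 and 1174 without cKO sham 1 and 2 and 983 without cKO TAC 1, and rose to 2919 without cKO TAC 2.

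**Figure D5:**
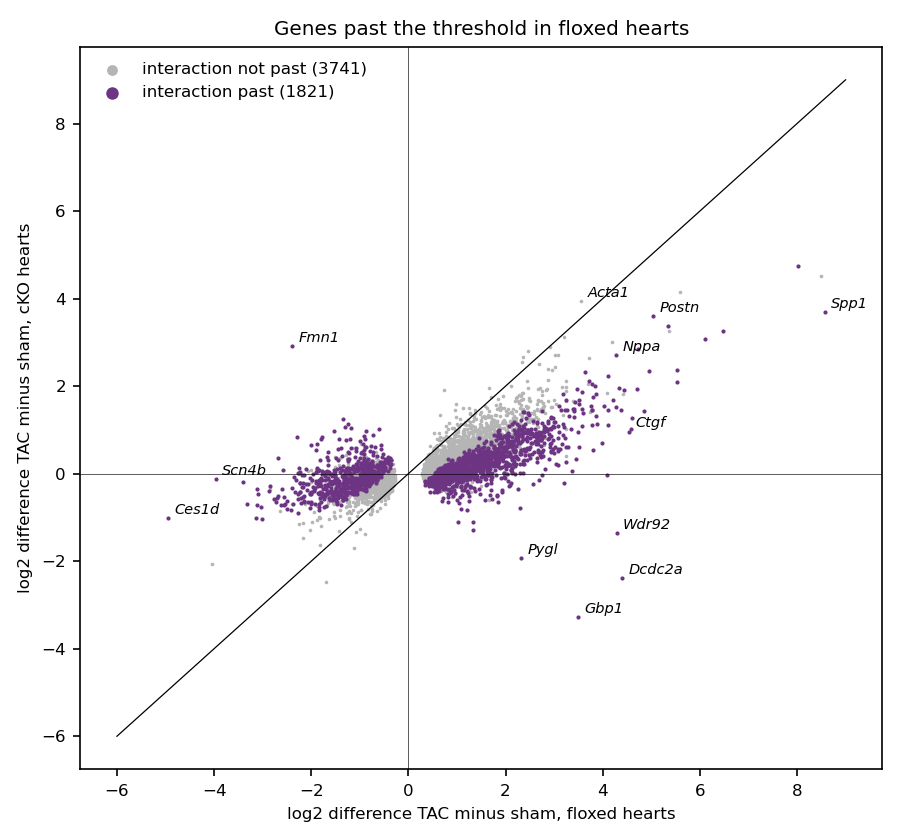
Each point is 1 of the 5562 genes past the threshold in floxed hearts, at its log2 difference of TAC minus sham in floxed (x axis) and cKO hearts (y axis); purple genes (1821) also had an interaction past the threshold, and the diagonal marks equal responses. Most points lie between the diagonal and the horizontal line at 0, a position that the choice of genes by their floxed values favours.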

How the data were processed

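Polyadenylated RNA of left ventricles was made into stranded libraries and sequenced as paired reads of 50 bases, per the labels' protocols. The authors named Bowtie2 2.2.6, HTSeq, DESeq2 and mm10, per the submitters' processing notes; which gene models were used, how reads were counted and in which order the tools ran is not stated in the sources used here. The deposited values are CPM, counts of a gene scaled to the total of its library. In every library 100% of them came out as whole reads with a tolerance of 0.02 reads, and the count tests used those reads.

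Here limma 3.58.1 (trended variance, R 4.3.3) was fitted to log2(CPM + 1) with 1 coefficient per group over all 8 libraries, for genes with at least 1 CPM in 2 libraries, with Benjamini-Hochberg adjustment over 13120 genes and a threshold of 0.05. Between 0.153% and 0.201% of a library's reads belonged to genes not listed. Alternatives were other pseudocounts, filters and scalings, limma-voom, edgeR 4.0.16, DESeq2 1.42.0, a replicate block, and libraries left out. The procedure was tested on simulated data. The 74 lists hold 1415 distinct genes, of which 1357 were listed, 13 of them by synonym, and 1341 tested. Genes named are the 20 largest rises and falls, the 12 largest gains and losses in CPM, in each list the 4 smallest adjusted p with the extremes and the members against the list's direction, all pairs, the 10 largest interactions each way and 8 genes near 0 in a group. The members, lists and pairs were chosen with earlier results of these data known. Of the listed genes 13367 matched RefSeq (GRCm38.p6), which gave coordinates, gene types and promoters. Lists are described by counts and medians, with no set test. Protein sequences were not used here. Results for some genes are not reported here.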

Additional observations from a re-analysis of the deposited data

Results flagged for a closer look

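The TAC response differed between cKO and floxed hearts, by the interaction test of limma, for 1851 genes. The value given for a gene is the cKO response minus the floxed response on the log2 scale. A negative value marks a smaller rise, a larger fall, or a fall in place of a rise, in cKO hearts. The 10 most negative values among genes past both thresholds were -6.79 for Dcdc2a, -6.77 for Gbp1, -5.64 for Wdr92, -4.87 for Spp1, -4.26 for Pygl, -4.12 for Stbd1, -3.58 for Ctgf, -3.56 for Adam8, -3.43 for Thbs1 and -3.41 for Hspa1a. The 10 most positive were 5.32 for Fmn1, 3.94 for Ces1d, 3.85 for Scn4b, 3.22 for Inmt, 3.13 for Ptgfr, 3.03 for Egf, 2.77 for Mylk4, 2.66 for Scn4a, 2.65 for Acsm5 and 2.63 for Fbp2.

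In 11 of these 20 genes the cKO difference had the opposite sign to the floxed one. By limma it passed the threshold for 3 of the 11, Dcdc2a (log2 -2.38, adjusted p = 0.00615), Gbp1 (log2 -3.28, adjusted p = 0.00548) and Pygl (log2 -1.93, adjusted p = 0.0104), and not for Wdr92 (log2 -1.35, adjusted p = 0.414) or Fmn1 (log2 2.92, adjusted p = 0.0628). These 5 had the largest cKO differences of the 11 and were picked after their values were seen. Dcdc2a, a doublecortin family gene, was at 0.324 and 0.18 CPM in the sham libraries and 24.7 and 26.2 CPM in the TAC libraries of floxed mice, and at 4.36 and 9.62 CPM in the cKO sham libraries and 0.552 and 0.346 CPM in the cKO TAC libraries. Gbp1, a guanylate binding protein, was at 0.26 and 0.06 CPM in the sham libraries and 10.9 and 13.2 CPM in the TAC libraries of floxed mice, and at 6.01 and 19.1 CPM in the cKO sham libraries and 0.221 and 0.23 CPM in the cKO TAC libraries. Wdr92 was at 50.2 and 60.5 CPM in the sham libraries and 807 and 1492 CPM in the TAC libraries of floxed mice, and at 74.4 and 584 CPM in the cKO sham libraries and 116 and 57 CPM in the cKO TAC libraries. Pygl was at 40.0 and 39.3 CPM in the cKO sham libraries and 6.45 and 14.2 CPM in the cKO TAC libraries, against a floxed response of log2 2.32. Fmn1, a formin, was at 39.4 and 33.4 CPM in the sham libraries and 5.9 and 6.27 CPM in the TAC libraries of floxed mice, and at 0.582 and 0.664 CPM in the cKO sham libraries and 32.9 and 3.46 CPM in the cKO TAC libraries. For all 5 the sham libraries of cKO mice lay outside the range of the floxed sham libraries. Their high libraries thus followed neither surgery nor genotype alone, so their interaction values also hold a difference between the sham groups. The labels do not give the strain of the animals, and its part in these values was not tested. Scn4b was at 44.1 and 42.4 CPM in the cKO sham libraries and 41.7 and 38.1 CPM in the cKO TAC libraries, with a cKO response of log2 -0.12, and the cKO responses of Spp1 and Ctgf were log2 3.70 and 0.96. No explanation of these differences was tested, and the count of 1851 was 254 without floxed sham 1.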

How the results depend on the processing

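Genes past the threshold in floxed hearts numbered 5290 to 6354 over the other pseudocounts, filters, scalings, tools and the fit of the 4 floxed libraries, except for 4919 with a filter of 5 CPM, beside 5562. The list medians given above hold for the deposited scaling, and under RLE scaling they were lower. The change was from log2 0.04 to -0.11 for proteasome subunits, -0.11 to -0.25 for glycolysis and -0.27 to -0.42 for mitochondrial ribosomal proteins. Of 397 named genes past the threshold none changed sign in any alternative, and at most 47 lost their call, without floxed sham 1. Leaving out 1 library gave 3618 to 5919 genes, 2412 to 3894 higher and 1204 to 2027 lower. For the interaction it gave 254 to 2919 genes, 141 to 2066 negative and 113 to 853 positive, with the lowest values without floxed sham 1. A lone library is then assumed to vary like the other groups. Negative interactions numbered 736 by limma-voom and 781 by edgeR, and DESeq2 gave 1003 positive ones; the cause was not tested. Without the 3 libraries with atrial transcripts 4743 genes passed.

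The deviations of same-numbered libraries correlated at -0.1055 to 0.08119 across genes, so no strong effect shared by replicate number was seen. Whether same-numbered libraries were handled together is not known, and these values cannot tell. With the replicate block 5573 genes passed in floxed hearts and 1873 for the interaction. Exchanging the numbers of the floxed TAC libraries in the block, an alternative chosen after seeing the data, gave 5596 and 1924.

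With 2 libraries a group the median standard error was log2 0.187, so small changes were not detectable for many genes, and no library allows a limit under 0.137 CPM for a gene at 0 reads.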
